A study of Mus musculus with 106 samples.

Results

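Binding sites of PPARα (peroxisome proliferator-activated receptor alpha) in mouse liver after GW4064 were compared between Foxa2-KO and wild-type (WT) animals. The members are all 4646 peaks of the 2 deposited PPAR lists with GW4064, 1979 in WT and 2667 in Foxa2-KO, out of 316858 peaks and regions in the 25 lists of the series that were read here. A peak was taken as shared where it overlapped a peak of the other genotype by at least 1 base, which gave 219 shared and 1760 WT-only peaks in the WT list and 195 shared and 2472 KO-only peaks in the Foxa2-KO list. All animals of both groups were labelled C57BL/6, aged 3 months, and treated with GW4064, an agonist of the bile acid receptor FXR. The FXR, Foxa2 and ATAC lists set beside them came from animals labelled 8 to 12 weeks, and the LXR lists from animals of 3 months. The series text gives 4 h between ligand and collection. The Foxa2-KO animals carried Foxa2loxP/loxP with Alfp.Cre, a Cre transgene named for its Alfp promoter, and the WT label gives no further allele. Chromatin came from 100 mg of frozen liver, and the antibody was a rabbit polyclonal against PPARα. Each genotype had 2 labelled libraries and 1 list, so there was no value per library, no spread between animals and no test of any difference between the genotypes. The labels do not say whether the 2 libraries came from separate animals. The intervals printed below cover counting alone, and neighbouring peaks are not independent of each other.

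PPARα is a nuclear receptor that binds DNA together with RXR, at repeats of the hexamer AGGTCA spaced by 1 base. In hepatocytes it is best known for switching on genes of fatty acid uptake, mitochondrial and peroxisomal oxidation and ketone body formation during fasting. Foxa2 is a forkhead factor of liver and other endodermal tissues that binds at many liver enhancers. The series set out chromatin accessibility, receptor binding and transcription in the presence and absence of Foxa2, and the PPAR lists are its measure of binding by a receptor that is not itself the target of GW4064.

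Few peaks reached a promoter, taken as the 300 bases from 250 before to 50 after a RefSeq start site. Such a window was touched by 2 of 219 shared peaks in the WT list (0.913%), 7 of 1760 WT-only peaks (0.398%), 2 of 195 shared peaks in the Foxa2-KO list (1.03%) and 20 of 2472 KO-only peaks (0.809%). For scale, the share was 3.04% of the 22666 Foxa2 peaks of WT liver with GW4064 and 0.749% of the 22705 FXR peaks of the same condition. The windows below show the promoter with the smallest q in each class, then the KO-only promoter with the smallest q outside regions found with every antibody, and then the single window in which the hexamer AGGTCA lay inside a peak. The q-value is the false discovery rate that the authors deposited for each peak, and capitals mark the bases inside the peak. All sequences are from RefSeq, build GRCm38.p6 (mm10), and run 5′ to 3′ in the direction of the gene.
1600014C10Rik (shared), chr7:38182967-38183266, plus strand: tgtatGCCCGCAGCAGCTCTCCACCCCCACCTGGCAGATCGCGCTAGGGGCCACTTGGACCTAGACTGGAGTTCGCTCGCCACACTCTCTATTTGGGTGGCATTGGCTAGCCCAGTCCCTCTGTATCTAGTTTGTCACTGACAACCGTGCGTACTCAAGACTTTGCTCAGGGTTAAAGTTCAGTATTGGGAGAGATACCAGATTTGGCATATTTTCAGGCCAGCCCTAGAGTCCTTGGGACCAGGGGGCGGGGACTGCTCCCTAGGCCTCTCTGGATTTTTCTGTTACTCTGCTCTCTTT
Gm39886 (WT-only), chr2:101458228-101458527, minus strand: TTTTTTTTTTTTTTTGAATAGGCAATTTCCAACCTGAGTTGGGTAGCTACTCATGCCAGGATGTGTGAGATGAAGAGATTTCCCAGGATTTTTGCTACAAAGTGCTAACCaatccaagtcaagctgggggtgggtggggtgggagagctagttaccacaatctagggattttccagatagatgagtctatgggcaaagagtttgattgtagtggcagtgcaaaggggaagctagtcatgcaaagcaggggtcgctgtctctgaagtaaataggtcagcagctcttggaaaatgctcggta
Trpm8 (KO-only), chr1:88306485-88306784, plus strand: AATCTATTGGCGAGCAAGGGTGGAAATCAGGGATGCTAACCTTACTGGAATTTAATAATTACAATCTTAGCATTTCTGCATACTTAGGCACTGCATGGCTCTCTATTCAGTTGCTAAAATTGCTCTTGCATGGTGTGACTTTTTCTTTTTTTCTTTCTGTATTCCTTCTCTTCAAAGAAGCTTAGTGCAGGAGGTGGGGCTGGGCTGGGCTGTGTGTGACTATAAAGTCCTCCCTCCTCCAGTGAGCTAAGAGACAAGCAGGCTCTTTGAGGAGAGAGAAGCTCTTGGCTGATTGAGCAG
Tmem267 (KO-only), chr13:119488223-119488522, plus strand: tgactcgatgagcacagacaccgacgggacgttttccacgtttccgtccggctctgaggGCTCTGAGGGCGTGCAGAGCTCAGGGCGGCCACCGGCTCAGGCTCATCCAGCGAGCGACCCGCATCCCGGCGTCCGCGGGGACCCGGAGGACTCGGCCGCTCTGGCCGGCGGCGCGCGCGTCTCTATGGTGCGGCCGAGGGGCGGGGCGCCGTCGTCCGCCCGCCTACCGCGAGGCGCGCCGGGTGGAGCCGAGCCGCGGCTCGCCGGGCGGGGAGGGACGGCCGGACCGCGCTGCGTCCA
Gm36823 (WT-only), chr3:38443825-38444124, minus strand: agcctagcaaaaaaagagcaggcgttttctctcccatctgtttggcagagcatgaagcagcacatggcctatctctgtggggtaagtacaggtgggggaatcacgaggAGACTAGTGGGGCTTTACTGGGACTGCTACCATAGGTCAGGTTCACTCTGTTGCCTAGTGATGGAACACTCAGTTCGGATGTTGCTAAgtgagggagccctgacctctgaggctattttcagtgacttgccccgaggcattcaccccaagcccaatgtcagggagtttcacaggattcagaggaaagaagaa

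The 1600014C10Rik window was almost wholly inside the peak in both genotypes, at q = 2.49e-43 in WT and 1.24e-104 in Foxa2-KO. Trpm8 encodes a cold-sensing ion channel, and its window was wholly inside a KO-only peak with q = 0.000298. The window of Tmem267, which encodes a transmembrane protein, shared 241 bases with a KO-only peak of q = 0.000547, and the same peak covered the window of the long noncoding RNA 3110070M22Rik on the other strand whole. The peak at Gm39886, a long noncoding RNA, covered 110 bases of its window at q = 0.00348, and that at the long noncoding RNA Gm36823 covered 88 bases at q = 0.0604. The other promoter with a shared peak, that of the protein-coding gene 4931408C20Rik, had q = 9.51e-06 in WT and 1.10e-09 in Foxa2-KO, far less extreme than 1600014C10Rik. Both shared promoter peaks lay in regions found with every antibody.

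Over all 35 windows touched by a peak, AGGTCA was present on either strand in 5 (14.3%), against 16.3% of all 32817 promoter windows, and in 1 of the 5 it lay inside the peak. The repeat AGGTCANAGGTCA, which holds the hexamer as part of itself, was in 0 of the 35 windows and in 13 of all windows (0.0396%). The letters TGTTTAC, a core bound by forkhead factors, were in 0 of the 35 windows and in 3.65% of all windows. These are matches of letters in 300-base windows, most of them only partly inside a peak, and peaks elsewhere were not searched because no genome was at hand.

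Most peaks in both lists were narrow and close to the limit of q at which the lists end. The median width was 48 bp in WT and 55 bp in Foxa2-KO, with ranges of 1 to 7412 bp and 1 to 15876 bp. Peaks of 20 bp or less made up 30.6% of the WT list and 28.8% of the Foxa2-KO list. The median q was 0.0600 in WT and 0.0411 in Foxa2-KO, and q was above 0.05 for 1704 WT peaks (86.1%) and 888 Foxa2-KO peaks (33.3%). The Foxa2-KO list was therefore longer and held more peaks of low q, and the 2 lists do not stand at the same place on that scale. Peaks covered 242.7 kb in WT and 511 kb in Foxa2-KO.

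Shared peaks were wider and of lower q at the median than peaks of 1 genotype, and the low-q end of both lists was mostly shared. Their median width was 354 bp in the WT list and 355 bp in the Foxa2-KO list, against 40 bp for WT-only and 47 bp for KO-only peaks. The median q of shared peaks was 0.0264 in WT and 0.00260 in Foxa2-KO, against 0.0606 for WT-only and 0.0422 for KO-only peaks. Shared peaks also reached the other end of the lists, since 82 of the 219 in WT had q above 0.05, and the widest Foxa2-KO peak was KO-only. Only 2 shared peaks in each list were 20 bp or less, against 603 WT-only and 765 KO-only peaks. Where peaks were shared they lay largely on top of each other, with a median of 97.9% of the WT peak and 85.3% of the Foxa2-KO peak covered by the partner.

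**Figure D1:**
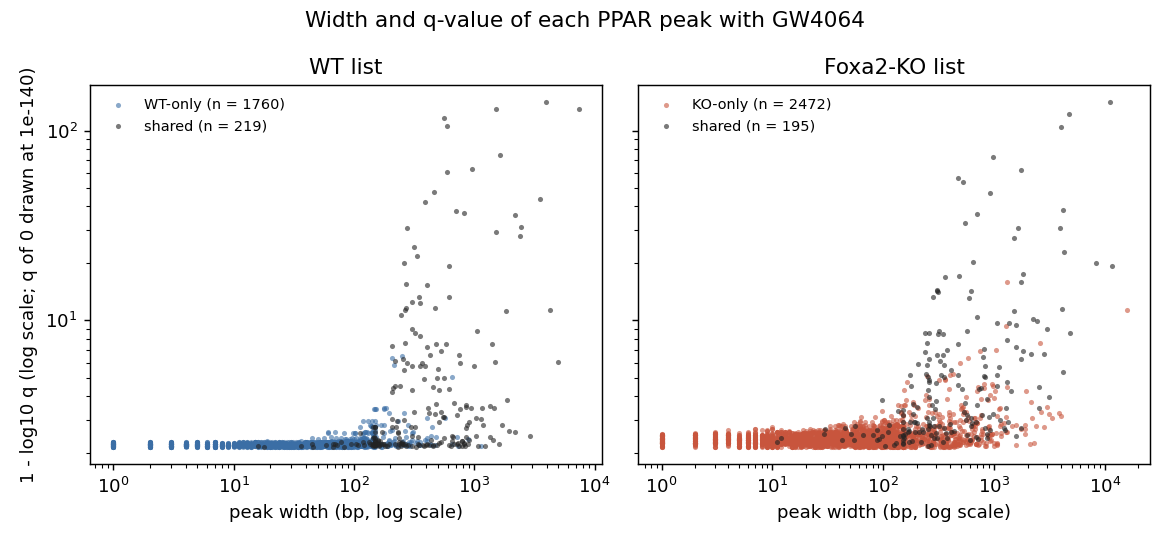
Width in bp (x axis, log scale) against 1 minus log10 of the deposited q-value (y axis, log scale) for each peak of the WT list (left) and the Foxa2-KO list (right), 1 point per peak, with q of 0 drawn at 1e-140. Shared peaks (dark) hold most of the upper right of both panels, while WT-only (blue) and KO-only (red) peaks lie mostly along the bottom, with medians of 40 and 47 bp.

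By whole lists, 11.1% of WT peaks (219 of 1979, 95% Wilson interval 9.76 to 12.5) had a Foxa2-KO peak, and 7.31% of Foxa2-KO peaks (195 of 2667, 6.38 to 8.36) had a WT peak. Both shares depended on q. All 47 peaks at the head of the WT list had a Foxa2-KO partner, and so did the first 22 peaks of the Foxa2-KO list. Of WT peaks with q up to 1e-20, 20 of 20 were shared, and of those with q between 1e-05 and 0.001, 20 of 22. The share then fell to 67.7% (21 of 31) for q from 0.001 to 0.01, to 26.6% (45 of 169) up to 0.05 and to 4.81% (82 of 1704) above 0.05. In the Foxa2-KO list the decline began sooner: 85.7% (30 of 35) were shared for q from 1e-10 to 1e-05, 58.0% (29 of 50) up to 0.001, 27.8% (25 of 90) up to 0.01, 4.58% (72 of 1572) up to 0.05 and 1.01% (9 of 888) above it. At equal rank the lists were more alike, since 88 of the first 100 WT peaks and 82 of the first 100 Foxa2-KO peaks had a partner, and 145 and 148 of the first 500.

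**Figure D2:**
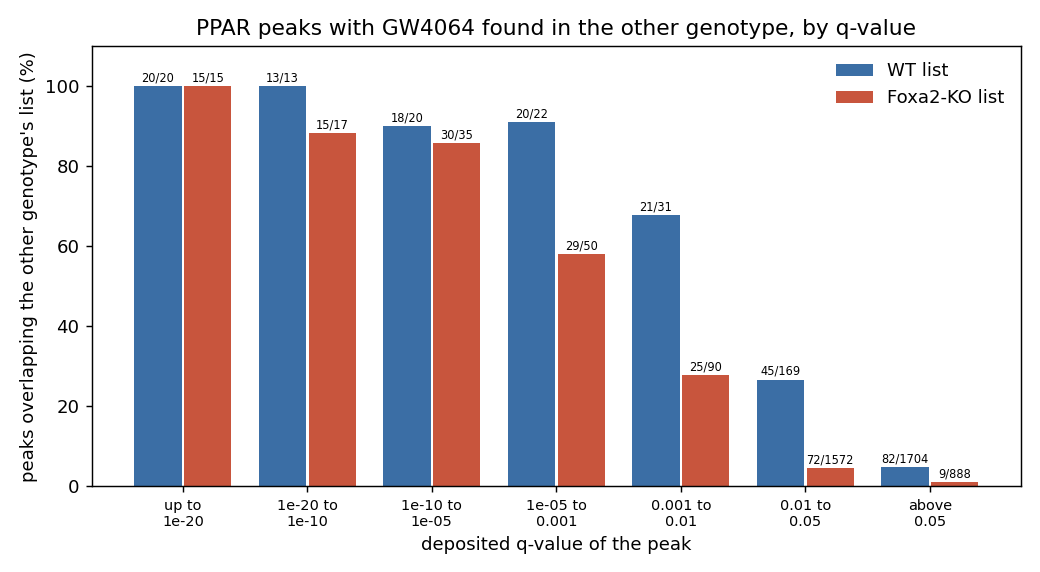
Percent of PPAR peaks overlapping the other genotype's list (y axis) by the deposited q-value of the peak (x axis), for the WT list (blue) and the Foxa2-KO list (red), with the number shared over the number of peaks on each bar. Both lists start at 100% and fall to 4.81% (WT) and 1.01% (Foxa2-KO) above a q of 0.05.

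Part of the shared set lay in regions that every antibody of the series enriched. Regions held by lists of all 4 antibodies (PPARα, FXR, Foxa2 and LXR) numbered 102 and spanned 389.5 kb. They contained 95 of the 219 shared WT peaks (43.4%) and 73 of the 195 shared Foxa2-KO peaks (37.4%), but 17 WT-only (0.966%) and 65 KO-only peaks (2.63%). Without those peaks, 6.64% of WT and 4.82% of Foxa2-KO peaks were shared. Each region is a merged block of overlapping peaks, so a peak inside it need not itself overlap a peak of every antibody. Because such blocks are not particular to PPARα, some results below are also given outside these regions.

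The first entries of both lists fell in such regions. Entry 1 of the WT list (q deposited as 0) lay at chr17:39842902-39846830 over Rn18s-rs5, a pseudogene of ribosomal RNA, and its Foxa2-KO partner was entry 13 (q = 2.83e-30). The second Rn18s-rs5 peak at chr17:39847435-39848947 was entry 3 in WT and entry 32 in Foxa2-KO. At 1600014C10Rik, a protein-coding gene on chromosome 7, the order was the other way round. Entry 1 of the Foxa2-KO list (q deposited as 0) covered chr7:38187449-38198547, and the WT peak at chr7:38191106-38198517, the widest shared peak of WT with 7412 bp, was entry 2 (q = 1.39e-129). The next Foxa2-KO entries, 2 at chr7:38175808-38180557 and 3 at chr7:38182972-38186980, lay beside or in the same gene, as did entry 5 at chr7:38199597-38201352. The remaining early entries in such regions were a peak over the long noncoding RNA Gm36876 (chr11:109011564-109012118, WT entry 4 and Foxa2-KO entry 11), 1 at chr15:75085446-75087089 near Ly6c2 (WT entry 6, Foxa2-KO entry 12) and 1 over the long noncoding RNA Gm40034 (chr2:181917185-181918152, Foxa2-KO entry 4, WT entry 7).

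The 1600014C10Rik stretch was prominent with GW4064 and vehicle in both genotypes and nearly absent with the LXR agonists GW3965 and T09. Peaks in its 1-Mb interval covered 20.3 kb with GW4064 and 20.6 kb with vehicle in WT, and 22.5 and 21.8 kb in Foxa2-KO. With GW3965 they covered 0 kb in WT and 0.657 kb in Foxa2-KO, and with T09 0 and 0.750 kb. The WT lists with GW3965 and T09 were short (110 and 373 peaks), but those of Foxa2-KO held 2508 and 1813 peaks. The stretch was also covered in both ATAC lists with GW4064 and in all 4 FXR lists. Foxa2 peaks covered 17965 bases of it with GW4064 and 16164 with the vehicle of GW4064, against 997 to 3336 in the other Foxa2 lists. LXR peaks covered 18479 bases in WT with vehicle and 0 to 861 in the other LXR lists. Rn18s-rs5, in contrast, was covered by 5415 to 5459 bases of peaks in every one of the 8 PPAR lists.

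Outside the regions of all 4 antibodies, 124 shared WT peaks remained, and the first 10 were mostly intergenic. The first was entry 5 of WT at chr17:36231109-36231702 (q = 6.15e-105; Foxa2-KO entry 7, q = 4.44e-53), 24.3 kb from Rpp21, which encodes a ribonuclease P subunit. The second lay at chr11:54139991-54140819 (WT q = 1.30e-36, Foxa2-KO q = 9.62e-47), 8.74 kb from P4ha2, a collagen prolyl hydroxylase. The nearest genes of the others in order were Mex3c, Ifngr2 (a chain of the interferon gamma receptor), Il1rapl1, Cr2 (a complement receptor), Gm40035, Rimbp3, Gm40035 again and Vmn2r87 (a vomeronasal receptor). Among these, Vmn2r87 was 97.5 kb, Cr2 64.8 kb and Mex3c 39.1 kb from the site. Of the 10, 8 were intergenic, 1 lay in the body of Il1rapl1 (chrX:87238238-87238510) and 1 in the long noncoding RNA Gm40034. Each of the 10 was present in all 6 other PPAR lists, that is with vehicle, GW3965 and T09 in both genotypes, and 8 of the 10 in all 6 LXR lists. None of the 10 was in an ATAC region of either genotype. These sites were thus present with every treatment and in both genotypes, and the widest shared WT peak outside the regions (chr17:23518005-23519874, 1870 bp, 37.8 kb from Zfp213) was in 4 of the other 6.

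Recurrence set the classes apart. Of the 219 shared WT peaks, 203 (92.7%) were in 1 or more of the other 6 PPAR lists, 165 (75.3%) in 3 or more and 60 (27.4%) in all 6. For shared Foxa2-KO peaks the numbers were 179 (91.8%), 149 (76.4%) and 59 (30.3%) of 195. Only 57 of 1760 WT-only peaks (3.24%) were in any of the 6, and 321 of 2472 KO-only peaks (13%). A site found in both genotypes with GW4064 was therefore mostly found again under other treatments, and a site found in 1 genotype mostly was not. Shared peaks were wider (medians of 354 and 355 bp against 40 and 47 bp) and of lower q. The part of width and q in this contrast was not tested. Outside regions of all 4 antibodies, the WT vehicle list held 69.4% of shared and 1.03% of WT-only WT sites. The Foxa2-KO vehicle list held 73.0% of shared and 6.40% of KO-only Foxa2-KO sites. Lists of other antibodies also held most shared sites: 154 of the 219 in the WT list (70.3%) were in an LXR list, 128 (58.4%) in an FXR list and 116 (53.0%) in a Foxa2 list, and for KO-only sites the shares were 9.75%, 5.54% and 6.84%.

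**Figure D3:**
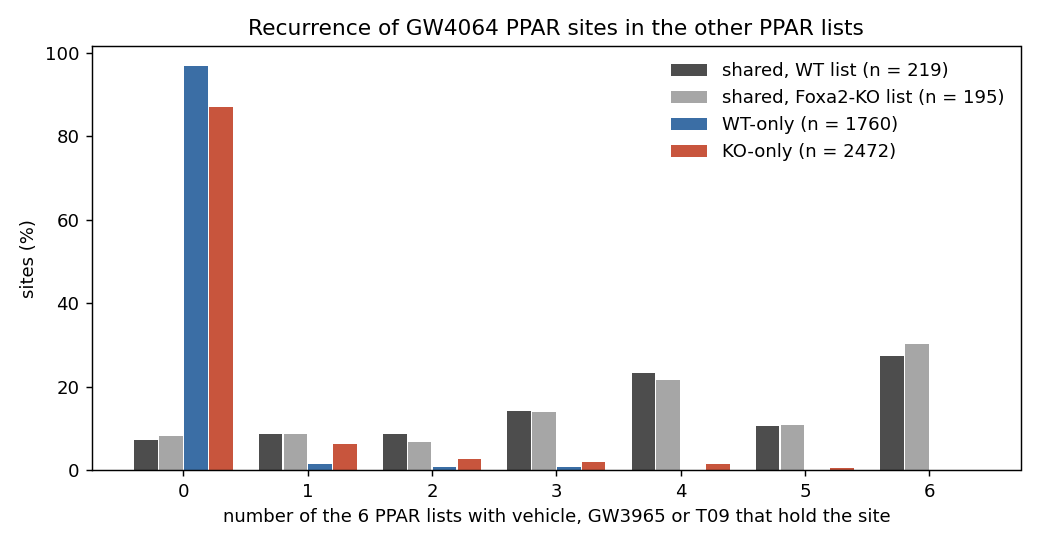
Percent of sites (y axis) by the number of the 6 PPAR lists with vehicle, GW3965 or T09 that hold them (x axis), for shared sites of the WT list (dark grey) and Foxa2-KO list (light grey), WT-only (blue) and KO-only sites (red). WT-only and KO-only sites stand at 0 lists in 96.8% and 87.0% of cases, whereas shared sites peak at all 6 lists (27.4% and 30.3%).

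Few sites were both constant across PPAR lists and held by no list of another antibody. Of shared WT peaks there were 4, named here after their values were seen. They lay at chr10:130594752-130595017 (97.5 kb from Vmn2r87), chr6:103314518-103314793 (196 kb from Chl1), chr4:89217117-89217265 over the pseudogene Tgif2-ps1 (36.1 kb from Mtap) and chr4:60081738-60081917 over the pseudogene Mup-ps1. The last is 11.4 kb from Mup7, one of the major urinary protein genes, which are highly expressed in liver. Its q was 0.0644 in WT and 0.0121 in Foxa2-KO, so a constant site could still be near the end of a list.

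WT-only sites began at entry 48 of the WT list. The first 10 outside the regions of all 4 antibodies had Gtpbp4 (a GTPase of ribosome assembly), Lars2 (mitochondrial leucyl-tRNA synthetase), Jarid2 (a partner of a Polycomb complex), Vmn2r129, Dlk1, Iftap, Prss42, Zwint, Tspan8 and Podxl as nearest protein-coding genes. Some were distant, with Zwint at 358 kb, Iftap at 102 kb and Dlk1 at 99.1 kb from the site. The sites at Gtpbp4 (chr13:9011671-9011919, q = 3.32e-06) and Lars2 (chr9:123461917-123462121, q = 4.67e-06, inside the gene) were in all 6 other PPAR lists, 3 of them Foxa2-KO lists, and Jarid2 (chr13:44869509-44869721, inside the gene) in 5. These first 3 sites were thus present in Foxa2-KO liver with another treatment, although the Foxa2-KO list with GW4064 lacked them. From the Dlk1 site (chr12:109353314-109353492, q = 0.00344) on, 4 of the remaining 6 were in no other PPAR list. The Tspan8 site (chr10:115780783-115780932, q = 0.00379) was the only one of the 10 in a WT ATAC region. The widest WT-only peak had 1139 bp (chr16:98056305-98057443, q = 0.0642) and was in no other list of any antibody.

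KO-only sites began earlier, at entry 23 of the Foxa2-KO list. That site, at chr17:13590288-13591584 (q = 1.26e-15), was 125.5 kb from Tcte2, a gene of the t-complex interval, and stood in the other 3 Foxa2-KO PPAR lists and in none of the 4 WT lists. The next 9 had Mid1 (a ubiquitin ligase), Tmem267, Vmn1r2, Mrgpra3, Vmn2r129, Abt1, F2rl3 (a thrombin receptor), Desi1 and Zfp984 as nearest genes. Some were distant, with F2rl3 at 855 kb, Mrgpra3 at 157 kb and Vmn1r2 at 86.4 kb from the site. The sites at Mid1 (chrX:169993560-169994842, q = 4.82e-09), Tmem267 (chr13:119601842-119602584, q = 1.18e-06) and Vmn1r2 (chr4:3085424-3086002, q = 4.97e-06) were in 2, 2 and 3 of the other WT PPAR lists. Of the 10, 7 thus had been found in WT liver with some other treatment. The Desi1 site at chr15:81993998-81994359 (q = 0.000141), which also overlaps Xrcc6, a subunit of the Ku DNA repair complex, and the Tcte2 site were in no WT PPAR list, as was that at Abt1. The widest KO-only peak was 15876 bp over Sfi1, a centrosome gene (chr11:3184227-3200102), in a region of all 4 antibodies, and the widest outside them was 3336 bp on chromosome Y near Gm52481.

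Sites that stayed with 1 genotype across treatments were those of Foxa2-KO in these lists, whose lengths differed between the genotypes. Among KO-only sites, 56 of 2472 (2.27%) were in 2 or 3 of the other Foxa2-KO lists and in no WT list, and 18 (0.728%) were in all 3. Those lists held 4094 peaks with vehicle, 2508 with GW3965 and 1813 with T09. Of shared Foxa2-KO sites, which have a WT peak with GW4064, 15 of 195 (7.69%) were in 2 or 3 of them and in no other WT list. For 8 of the 195 (4.10%) it was all 3, so this recurrence was not particular to KO-only sites. Among WT-only sites, 0 were in 2 or 3 of the other WT lists and in no Foxa2-KO list. The other WT lists held 1985, 110 and 373 peaks, so a WT-only site had far fewer chances to recur. The 18 KO-only sites had as nearest genes Tcte2, Hsf2 (a heat shock factor, 2 sites), Tmcc1 (2 sites in the gene), Tmem267, Hjurp, Asmt, Olfr161, Zfp978, Zfp982 (2 sites), Zfp990, Gm42346, Gm52720 (2 sites), Gm10573 and Vmn1r238. Several of these genes were far away, with Olfr161 at 347 kb, Gm10573 at 269 kb, Asmt at 135 kb, Tcte2 at 125.5 kb and Vmn1r238 at 112 kb. Both Hsf2 sites (chr10:57442039-57442806 and chr10:57443948-57444481) were also in all 4 FXR lists, WT included. Absence from every WT PPAR list thus did not mean absence from every list of WT liver.

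KO-only sites were spread over 953 intervals when the genome was cut into intervals of 1 Mb, and WT-only sites over 928. Intervals with 5 or more sites of a class held 43.0% of KO-only and 21.9% of WT-only sites, a mark that 2472 sites reach more easily than 1760. The 10 densest intervals held 10.4% of KO-only and 4.89% of WT-only sites, against 43.8% of shared WT and 37.9% of shared Foxa2-KO sites, which are far fewer. The densest interval of KO-only sites was the cluster of zinc finger genes around Zfp982 on chromosome 4, with 47 KO-only, 6 WT-only and 12 shared Foxa2-KO sites. Then came an interval with Mrgpra3 (an itch receptor of sensory neurons) on chromosome 7 with 32 KO-only sites, 1 with Tcp10c and the Smok2 genes on chromosome 17 with 30, and 1 with the prolactin family gene Prl2c3 on chromosome 13 with 29. Of 3 duplicated gene families that were counted, 2 were more common beside KO-only and shared sites than among all genes. The nearest gene was named Zfp for 5.34% of KO-only and 2.27% of WT-only sites (1.83% of all protein-coding genes), and for 12.3% of shared WT sites. Vomeronasal receptors (Vmn) were nearest to 2.91% of KO-only, 0.966% of WT-only and 8.22% of shared WT sites (1.62% of genes). Olfactory receptors (Olfr) went the other way, being nearest to 2.51% of KO-only, 2.22% of WT-only and 4.11% of shared WT sites against 5.07% of genes. Near-identical copies share reads, and the handling of such reads is not given in the sources used here.

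These intervals did not behave alike across treatments. They were picked for their many KO-only sites with GW4064, so a high count in that list is no result of its own. The Zfp982 interval held 59 Foxa2-KO peaks with GW4064 and 48 to 75 with the other treatments, against 19 with GW4064, 35 with vehicle, 0 with GW3965 and 2 with T09 in WT. Per 1000 peaks of a list this came to 22.1 in Foxa2-KO and 9.60 in WT with GW4064, but to 18.3 and 17.6 with vehicle, so with vehicle the values lay close together once list length was counted. The Tcp10c interval held 30 Foxa2-KO peaks with GW4064 and 7, 5 and 4 with vehicle, GW3965 and T09, and 0 in each of the 4 WT lists. The Mrgpra3 interval held 34 with GW4064 in Foxa2-KO but 3, 1 and 0 in the other Foxa2-KO lists, and 6 with GW4064 and 13 with vehicle in WT. The Tcp10c interval thus held PPAR peaks in every Foxa2-KO list and in no WT list, and the Mrgpra3 interval stood at 12.7 per 1000 peaks in Foxa2-KO with GW4064 and next at 6.55 in WT with vehicle. FXR lists differed between the genotypes at Tcp10c as well. FXR peaks there covered 16.3 kb with vehicle and 25.2 kb with GW4064 in Foxa2-KO, against 0 and 1.76 kb in WT. LXR peaks there covered 0, 0.541 and 0.594 kb in WT with vehicle, GW and T09, and 0, 1.19 and 0.480 kb in Foxa2-KO. Those LXR lists held 4803, 14219 and 8095 peaks in WT and 161, 8803 and 2503 in Foxa2-KO. They were cut at a looser false discovery rate in Foxa2-KO than in WT, so they do not show whether LXR binding there differed. Copy number and input reads in these intervals were not analysed here, and their part in these counts was not tested.

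**Figure D4:**
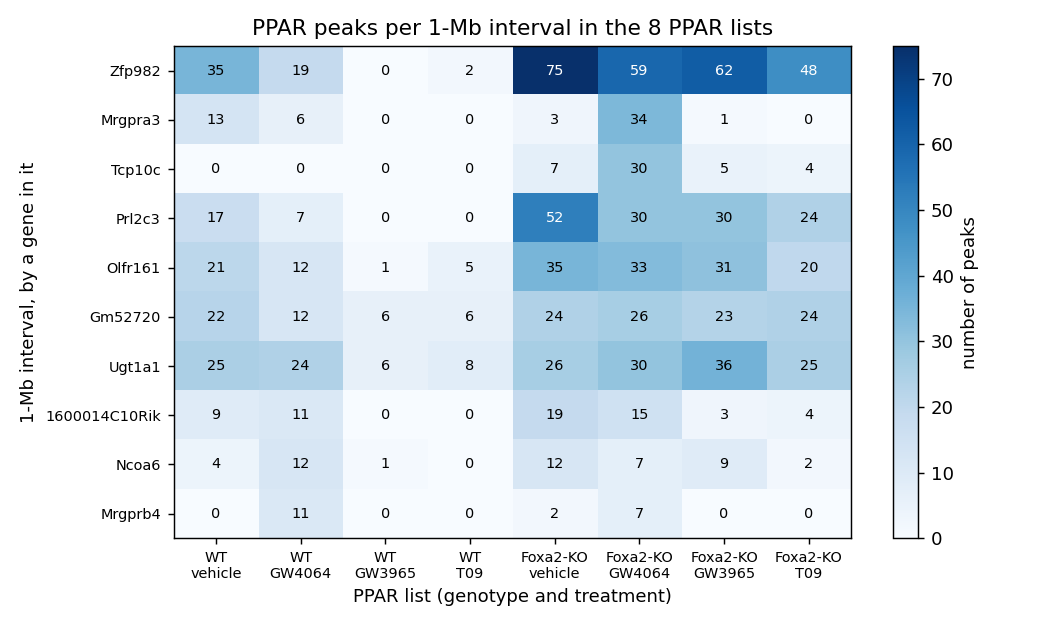
Number of PPAR peaks (colour and printed value) in 10 intervals of 1 Mb, each labelled by a gene in it (y axis), in the 8 PPAR lists by genotype and treatment (x axis). Tcp10c is at 0 in all 4 WT lists, and Mrgpra3 reaches 34 in Foxa2-KO with GW4064. The intervals were picked after the counts with GW4064 were seen. The WT lists with GW3965 and T09 hold 110 and 373 peaks in all.

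The densest interval of shared sites was that of Ugt1a1, the enzyme that conjugates bilirubin, with its neighbours Mroh2a, Hjurp (a chaperone of centromeric histone) and Trpm8 on chromosome 1. All 24 WT peaks there were shared, and the 30 Foxa2-KO peaks were 15 shared and 15 KO-only. By width the difference was larger, with 20.9 kb of peaks in WT and 61.2 kb in Foxa2-KO. WT with vehicle covered 62.2 kb, however, and the Foxa2-KO lists with vehicle, GW3965 and T09 covered 57.6 to 59.6 kb, while the short WT lists with GW3965 and T09 covered 7.70 and 4.42 kb. The WT list with GW4064 thus had nearly as many peaks there as that with vehicle, over a smaller length. WT-only sites had no interval of that density. Their densest held 12, on chromosome 2, and included 2 sites in Ncoa6, a coactivator of nuclear receptors (chr2:155446624-155446725 and chr2:155454978-155455058, q = 0.0558 and 0.0557). Ncoa6 is in none of the 12 gene lists described next, and its sites were named after their values were seen.

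The genes for which PPARα is known had no site nearby in either list. A peak whose centre fell on the gene body or no more than 10 kb away was counted for 926 of 21883 protein-coding genes in WT (4.23%) and 994 in Foxa2-KO (4.54%), of which 199 genes (0.909%) had one in both, 727 (3.32%) in WT alone and 795 (3.63%) in Foxa2-KO alone. Of 44 PPAR targets and genes of fatty acid oxidation, among them Ehhadh, Cpt1a, Cyp4a10, Pdk4, Angptl4 and Plin2, 0 had a peak in either list. The same count of 0 held for the 13 genes of the PPAR family, its RXR partners and coregulators, for 27 FXR targets and genes of bile acid handling, 15 lipoprotein genes and 18 clock genes. At the background shares above, a list of 44 genes would hold about 2 such genes, so a count of 0 is little below the background at this number of peaks.

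When the distance was raised to 50 kb, Acot4 (an acyl-CoA thioesterase) was among the members with a WT peak, and Fgf21 (a fasting hormone), Creb3l3 (a transcription factor of fasting) and Etfdh (an electron carrier of fatty acid oxidation) were those with a Foxa2-KO peak. The widest of these 4 was that at Creb3l3 (chr10:81072269-81072383, 115 bp, q = 0.0344, 12.0 kb away). The others were 16, 7 and 1 bp wide in the order named, and none of the 4 was in another PPAR list. They are therefore single narrow entries that no other treatment repeated. The share of all genes with a peak within 50 kb was not counted, so these members stand without a background.

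Across all 12 lists, 5 of 223 distinct genes had a peak within 10 kb, 3 in each genotype. That is 1.35% of the genes in each list, below the 4.23% (WT) and 4.54% (Foxa2-KO) of all protein-coding genes, and the difference was not tested. Mylip, an LXR target that marks the LDL receptor for degradation, was the member with a site in both. The site lay inside the gene at chr13:45398618-45398765 in WT (q = 0.0368, entry 184) and chr13:45398621-45398665 in Foxa2-KO (q = 0.0190, entry 339), and was in 4 of the other 6 PPAR lists and in no FXR, Foxa2 or LXR list. It was in neither ATAC list. Dgat2, which completes triglyceride synthesis, had a KO-only peak of 120 bp (chr7:99149256-99149375, q = 0.0328) 4.35 kb from the gene. Fbp1, an enzyme of glucose production, had a WT-only peak of 40 bp inside the gene (chr13:62866877-62866916, q = 0.0682), and Nr5a2, a nuclear receptor of hepatocytes, 1 of 12 bp (chr1:136944510-136944521, q = 0.0599). None of these 3 was found in another PPAR list, in contrast to Mylip.

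Markers of liver cell types also had few peaks. Reln, one of 12 stellate cell markers, had a KO-only peak of 7 bp in its body (chr5:22118664-22118670, q = 0.0419), and 0 of 12 Kupffer cell, 0 of 12 sinusoidal endothelial and 0 of 10 cholangiocyte markers had a peak in either list. Of 24 hepatocyte identity genes, 1 had a WT peak and 0 a Foxa2-KO peak. At the shares of 4.23% and 4.54% over all genes, a list of 24 would hold about 1 gene with a peak and a list of 12 fewer than 1, so these counts are near the background. A peak list of this size thus gives no check of the labelled tissue from the markers of either hepatocytes or other cells.

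GW4064 ATAC regions of the same genotype held few PPAR sites. The ATAC lists, from 3 labelled samples per arm of animals aged 8 to 12 weeks, give regions called with ligand against vehicle, so they do not list all open chromatin. The WT list had 60528 regions over 20.8 Mb and the Foxa2-KO list 82561 regions over 19.4 Mb. In WT, 45 of 1979 PPAR peaks (2.27%, 95% Wilson interval 1.70 to 3.03) were in a WT region. In Foxa2-KO, 108 of 2667 (4.05%, 3.37 to 4.87) were in a Foxa2-KO region. Among peaks with q of 0.05 or less the order turned, with 24 of 275 WT peaks (8.73%) and 76 of 1779 Foxa2-KO peaks (4.27%) in a region of their genotype, so which genotype had the larger share rests on the limit of q. For scale, WT ATAC regions held 5.84% of Foxa2 and 1.54% of FXR peaks of WT liver with GW4064, and Foxa2-KO regions held 2.10% of FXR peaks of Foxa2-KO liver. The peaks of those 2 WT lists had other widths, with medians of 124 bp for Foxa2 and 58 bp for FXR.

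The share differed between the classes of site. WT regions held 28 of 219 shared WT peaks (12.8%) and 17 of 1760 WT-only peaks (0.966%). Foxa2-KO regions held 25 of 195 shared Foxa2-KO peaks (12.8%) and 83 of 2472 KO-only peaks (3.36%). Overlap needed only 1 base, which a wider peak meets more easily. Median widths were 354 and 355 bp for shared peaks against 40 and 47 bp for WT-only and KO-only peaks. The part of width in these shares was not tested. With the ATAC lists exchanged, 2.48% of WT peaks were in a Foxa2-KO region and 3.56% of Foxa2-KO peaks in a WT region, and KO-only peaks stood at 3.03% in WT regions. KO-only PPAR sites thus numbered 83 in Foxa2-KO regions and 75 in WT regions. Of the individual sites in their own genotype's regions, however, 15 of 45 in WT and 19 of 108 in Foxa2-KO were also in a region of the other genotype, so the regions were mostly different ones. Outside regions of all 4 antibodies, 7.26% of shared and 0.975% of WT-only WT peaks, and 10.7% of shared and 3.12% of KO-only Foxa2-KO peaks, were in a region of their own genotype. The 35 WT and 100 Foxa2-KO ATAC regions with a PPAR site were wide, with a median of 908 bp in WT and 629 bp in Foxa2-KO against 150 and 132 bp over the whole lists. A wide region meets a peak more easily, so a larger median is no result of its own.

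**Figure D5:**
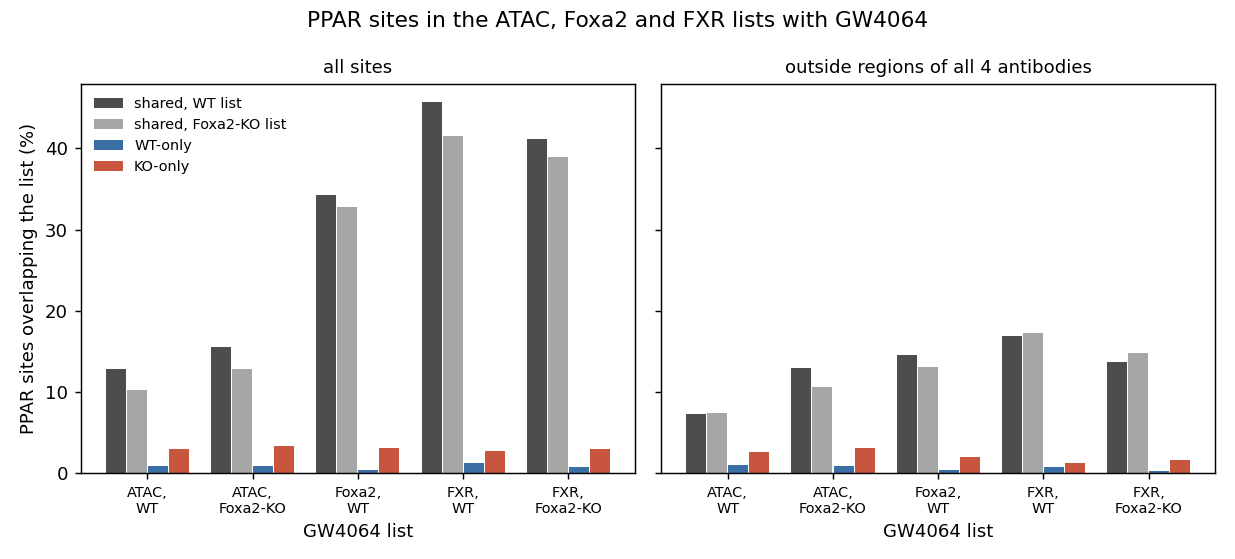
Percent of PPAR sites (y axis) that overlap the ATAC, Foxa2 and FXR lists with GW4064 (x axis), for shared sites of the WT list (dark grey) and Foxa2-KO list (light grey), WT-only (blue) and KO-only sites (red), over all sites (left) and outside regions of all 4 antibodies (right). Shared sites are the tallest bars in each group, and KO-only sites stand above WT-only sites in each (3.36% in Foxa2-KO ATAC regions against 0.966% of WT-only sites in WT regions).

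In WT, the ATAC regions with the most PPAR sites were those at 1600014C10Rik (chr7:38182302-38198577) and the Ugt1a1 interval. The first shared WT sites in ATAC regions beyond these were in Aida (chr1:183299072-183299652, q = 3.15e-07), which was in all 6 other PPAR lists, on chromosome Y, and 165 kb from Gdi2 (chr13:3372834-3373261). Further down stood sites near Igfbp7, a secreted protein that binds growth factors (chr5:77424652-77425062, q = 0.00354), in Tmcc1 (chr6:116042871-116043041) and in Smo, the signal transducer of the Hedgehog pathway (chr6:29748511-29748623, q = 0.0281). Of these, Tmcc1 was also in a Foxa2-KO region. In Foxa2-KO the region at 1600014C10Rik (chr7:38182174-38198567) was entry 3 of the ATAC list, with a deposited fold over vehicle of 1.26. Other KO sites in ATAC regions were near Mid1 (fold 1.64) and in Tmem267 (1.36 and 1.49 at 2 sites), 157 kb from Mrgpra3 (2.28) and in Desi1 (2.61), all KO-only. Folds over the 108 sites ran from 1.07 to 7.27, with a median of 1.78, and the WT ATAC list used here gave no fold to set beside them. The sites in this paragraph were named after their values were seen.

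Foxa2 peaks of WT liver with GW4064, which come from 1 labelled sample, met 75 of 219 shared WT PPAR sites (34.2%) and 8 of 1760 WT-only sites (0.455%). Foxa2 is deleted in the other genotype, so the same WT list was also set beside Foxa2-KO sites, where 64 of 195 shared (32.8%) and 77 of 2472 KO-only sites (3.11%) overlapped it. Few WT-only sites thus carried a Foxa2 peak in WT liver, and 7 of those 8 were outside regions of all 4 antibodies. WT-only peaks had a median width of 40 bp and 92.2% of them a q above 0.05, against 354 bp and 37.4% for shared WT peaks. Overlap needed only 1 base, and the part of width and q in these shares was not tested. FXR, the receptor that GW4064 activates, met 100 of 219 shared WT sites (45.7%) and 22 WT-only sites (1.25%) in WT, and 76 of 195 shared (39.0%) and 74 KO-only sites (2.99%) in Foxa2-KO. Outside the regions of all 4 antibodies these fell to 21 of 124 shared and 13 of 1743 WT-only sites in WT, and to 18 of 122 shared and 40 of 2407 KO-only sites in Foxa2-KO. Foxa2 at shared WT sites fell likewise to 18 of 124 (14.5%). The regions left out are defined by holding Foxa2 and FXR peaks, so these counts had to fall and the size of the fall is no result of its own.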

How the data were processed

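Reads were aligned with BWA to mm10, per the submitters' processing notes, and peaks were called against input by PeakSeq, per the labels. The 2 PPAR lists give, as deposited, a position and a q-value for each peak and no fold. The ATAC lists of the authors give regions of ligand over vehicle, with a deposited fold ratio and q-value in Foxa2-KO and position alone in WT. No library depth was used. The authors' lists were read in their order, and positions are printed 1-based. Overlap needed 1 base. Genes were the 21883 protein-coding genes of RefSeq GRCm38.p6, and a gene had a peak where a centre fell on its body or up to 10 kb away. Named genes are members of 12 gene lists with a peak, the nearest genes of the first 10 sites of each class outside regions of all 4 antibodies, the first 5 sites of each list inside them and the widest sites. The rule's largest fold could not be applied. Members and lists were chosen with earlier results of these data known, and the q ranges, 1-Mb intervals, gene families and recurrence counts were added after the lists were read. Some members of the gene lists are counted but not reported here by name. The overlap step was tested on simulated peaks. Scripts ran in python 3.11.15 with pandas 2.3.3, numpy 2.4.6 and matplotlib 3.10.9.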

Additional observations from a re-analysis of the deposited data

How the results depend on the processing

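No paired analysis was possible because each genotype is given as 1 list with no value per library, which also meant that no replicate could be left out. The share of WT peaks with a Foxa2-KO peak (11.1%) moved to 9.65% when 50% of the peak had to overlap and likewise with centres within 500 bp, 48.4% at q of 0.05 or less in both lists, 75.5% at 0.01 or less, 29.0% in the first 500 peaks, 6.64% without regions of all 4 antibodies and 22.2% without peaks of 50 bp or less. The share of Foxa2-KO peaks with a WT peak (7.31%) moved to 5.66% with 50% overlap, 35.7% at q of 0.01 or less, 29.6% in the first 500, 9.55% with both lists cut to 1979 peaks, 4.82% without the regions and 13.6% without narrow peaks. WT peaks in WT ATAC regions (2.27%) moved to 8.73% at q of 0.05, 17% at 0.01, 5.20% in the first 500, 1.39% without the regions and 4.15% without narrow peaks. Foxa2-KO peaks in Foxa2-KO ATAC regions (4.05%) moved to 3.30% with 50% in the region, 3.26% by the centre, 15.5% at q of 0.01, 8.40% in the first 500, 5.67% without narrow peaks and 3.07% with the ATAC list cut to 60528 regions. The first-ranked cuts keep fewer, lower-q peaks by construction. At q of 0.05 or less the WT share in ATAC regions exceeded that of Foxa2-KO (4.27%), the reverse of the whole lists. The other 10 alternatives for these shares stayed within the 95% counting interval. Of the PPAR targets, 0 had a peak at 5 kb in either list, 2 (WT) and 3 (Foxa2-KO) at 50 kb, and 8 and 3 at 100 kb. The share over all genes was counted at 10 kb only. These counts therefore have no background and show no difference between the genotypes at PPAR targets.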

Other observations

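Sites of the 2 lists were spread unevenly over chromosomes. Chromosome 4 held 21.0% of shared WT sites and 19.5% of shared Foxa2-KO sites, against 7.05% of WT-only and 9.02% of KO-only sites, and chromosome 1 held 13.7% of shared WT sites. Chromosome 7 held the largest number of KO-only sites (323, 13.1%) and of WT-only sites (188, 10.7%). Chromosome Y held 5 shared sites in each list, 1 WT-only and 11 KO-only sites. In the interval on chromosome 7 with Mrgprb4, next to that of Mrgpra3, peaks numbered 11 in WT and 7 in Foxa2-KO with GW4064, and 0, 0 and 0 in WT and 2, 0 and 0 in Foxa2-KO with vehicle, GW3965 and T09. The GW4064 lists thus held all but 2 of the PPAR peaks there. This interval was picked for its many WT-only sites with GW4064, so that excess is no result of its own. The WT lists with GW3965 and T09 were also short, with 110 and 373 peaks in all. With GW4064 the 11 WT peaks were all WT-only and the 7 Foxa2-KO peaks all KO-only, with 0 shared, and they covered only 0.675 and 0.337 kb. FXR lists held 11 peaks there with vehicle and 19 with GW4064 in WT, and 7 and 6 in Foxa2-KO.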
